A study of Mus musculus with 20 samples.

Results

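Apod encodes apolipoprotein D, and it is 1 gene of the 15956 listed in the count table of this study of diet and the mouse heart. It was found as the row whose Ensembl identifier, ENSMUSG00000022548, carries the symbol Apod in GENCODE M21, and it was chosen from the values of HF + LP compared to HF, where it had the smallest p of all genes tested. Its levels in the HF and HF + LP mice are therefore given as a description and with no test. The mice were male by the study's methods. Their age is 18 months in the labels, while the methods place the end of the study at a younger age, and the labels' age is the one given here. Left ventricular tissue was taken from 5 mice in each of 4 diet groups, namely a normal protein control diet (NP), a low protein diet (LP), a high-fat diet (HF), and a high-fat diet with low protein (HF + LP). Casein was the protein source in all groups, and the diets within a fat content differed in protein and carbohydrate. The labels give no strain and no genetic change. Each library came from 1 mouse and was prepared from the 3′ ends of mRNA, so a count is a count of 3′ reads.

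Apolipoprotein D is named for its presence on lipoprotein particles but belongs by fold to the lipocalins, small secreted proteins with a barrel-shaped pocket that holds a lipid. Its known ligands include arachidonic acid, and it is known for limiting lipid peroxidation in nervous tissue and for rising with age, injury, and inflammation. In the heart and elsewhere it is a secreted product, so its transcript in a tissue and its protein in a tissue need not match. The interferon response, which enters below, is the set of genes that cells switch on when interferon reaches its receptor, and many of its genes carry a shared DNA element in their promoters.

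The gene lies on the minus strand of chromosome 16, at 31296192 to 31314808 of GRCm38, and no annotated gene overlaps it, so its reads have no neighbor to share with. The RefSeq promoter of Apod, chr16:31314759-31315058 on GRCm38.p6, minus strand, runs from 250 bases before the transcription start to 50 bases after it. It is shown with the promoters of Isg15 (chr4:156200769-156201068, minus strand), Ifit3 (chr19:34583279-34583578, plus strand), and Ifit1 (chr19:34640639-34640938, plus strand), which are 3 of the 12 genes that varied most closely with Apod from mouse to mouse and were chosen for display because their windows hold the motif marked here. Capitals mark matches on either strand to the core of the interferon-stimulated response element, searched as GAAA, any 2 bases, and GAAA, and matches may overlap.
Apod: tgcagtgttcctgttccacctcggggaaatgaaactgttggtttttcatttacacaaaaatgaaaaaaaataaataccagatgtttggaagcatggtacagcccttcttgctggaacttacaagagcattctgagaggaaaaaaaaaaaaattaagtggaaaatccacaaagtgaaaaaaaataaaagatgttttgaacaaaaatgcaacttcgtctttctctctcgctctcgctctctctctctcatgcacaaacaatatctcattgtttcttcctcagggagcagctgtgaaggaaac
Isg15: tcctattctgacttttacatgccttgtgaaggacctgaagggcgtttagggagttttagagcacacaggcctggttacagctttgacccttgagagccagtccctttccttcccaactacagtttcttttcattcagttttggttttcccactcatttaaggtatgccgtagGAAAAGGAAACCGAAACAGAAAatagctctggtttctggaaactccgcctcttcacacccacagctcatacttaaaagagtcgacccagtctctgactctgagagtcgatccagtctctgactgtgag
Ifit3: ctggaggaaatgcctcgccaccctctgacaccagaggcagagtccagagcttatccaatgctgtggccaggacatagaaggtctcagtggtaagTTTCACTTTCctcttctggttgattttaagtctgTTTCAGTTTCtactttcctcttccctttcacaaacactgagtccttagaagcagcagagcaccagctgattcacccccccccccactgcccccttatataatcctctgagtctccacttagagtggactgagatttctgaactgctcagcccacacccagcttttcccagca
Ifit1: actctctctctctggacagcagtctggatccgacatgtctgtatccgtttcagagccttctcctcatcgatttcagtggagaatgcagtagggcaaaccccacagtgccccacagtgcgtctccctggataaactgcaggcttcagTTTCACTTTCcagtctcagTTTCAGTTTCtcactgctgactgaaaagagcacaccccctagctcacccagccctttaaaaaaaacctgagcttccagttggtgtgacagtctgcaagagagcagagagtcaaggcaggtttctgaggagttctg

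These letters were found 3 times in the Isg15 window, in overlapping matches, and 2 times each in the windows of Ifit3 and Ifit1. No match was found in the Apod window. Of 32851 RefSeq promoter windows of this length, 3.44% held the motif. Among the 12 genes, windows were found for 9, and 4 of these held it, B2m being the other. Those of Rnf213, Irf7, Lgals3bp, Chek2, and Irf9 held none, as that of Apod. The direct repeat bound by the oxysterol receptors LXR, which regulate cholesterol export and are linked to Apod, was searched as AGGTCA, any 4 bases, and AGGTCA, on both strands. It was in 5 of all windows, 0.0152% of them, and not in those of Apod or the 9 genes. A match is only a match of letters, and no match says nothing about sequence outside the window.

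Counts were scaled to a common library size (TMM), and the values below are these normalized counts. In NP, Apod had 142 in mouse 4, 163 in mouse 3, 175 in mouse 6, 176 in mouse 8, and 218 in mouse 5. In LP, it had 130 in mouse 5, 160 in mouse 2, 169 in mouse 20, 197 in mouse 13, and 208 in mouse 15. The 2 groups on the lower fat content overlapped over most of their ranges. In HF, Apod had 177 in mouse 1, 339 in mouse 3, 362 in mouse 2, 427 in mouse 4, and 508 in mouse 5. In HF + LP, it had 126 in mouse 3, 147 in mouse 5, 148 in mouse 4, 166 in mouse 1, and 186 in mouse 2. Thus 4 of the 5 HF mice lay above all 15 mice of the other diets, and HF mouse 1 lay among them.

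**Figure D1:**
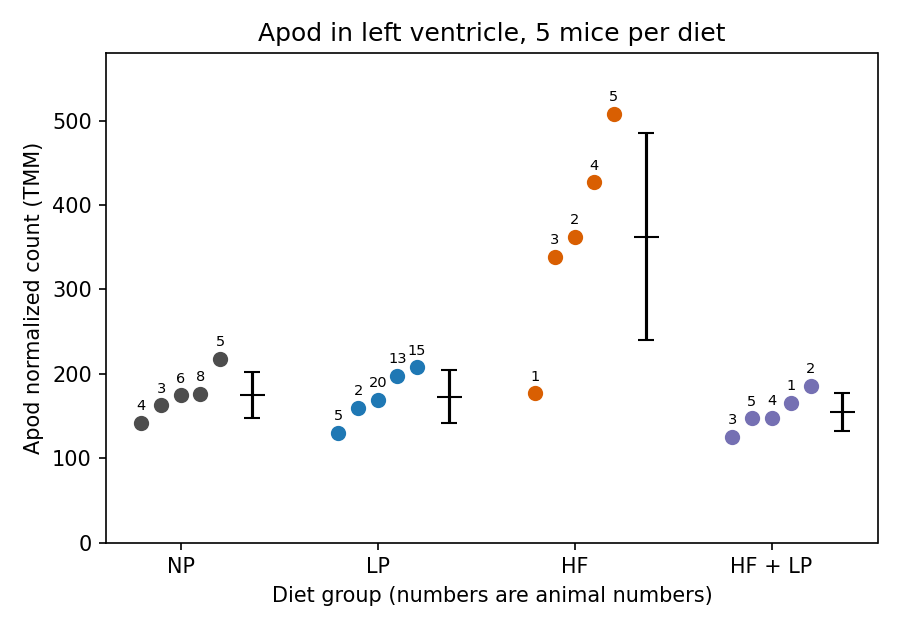
Normalized Apod count (y axis) in each of the 20 mice by diet group (x axis), with the animal number above each point and the mean and SD as bars. HF mice 2 to 5 lie between 339 and 508, above the other diets, whose highest mouse had 218, while HF mouse 1 had 177.

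The HF mean was 363 ± 123 and the HF + LP mean 154 ± 22.6 (SD, n = 5), and NP and LP had means of 175 ± 27.6 and 173 ± 31.0. The HF mice also spread most, with a coefficient of variation of 33.9%, against 15.8% in NP, 17.9% in LP, and 14.6% in HF + LP. The raw counts of Apod ran from 119 to 662 per library, and counting alone would give a mean coefficient of variation of 5.60% in HF and 7.59% to 8.26% in the other groups. In order of the means, HF stood first, and NP, LP, and HF + LP, which followed, did not differ beyond their spread.

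The only comparison that does not use the groups by which Apod was chosen is that of LP with NP, which asks whether less protein on the lower fat content changed it. The log2 fold change was −0.01 ± 0.21 (SE), with a 95% confidence interval of −0.44 to 0.41, and the adjusted p was 0.998 (edgeR with Benjamini-Hochberg adjustment over 13991 genes). As a fold, the interval ran from 0.737 to 1.33, so an increase to over 1.33 times and a decrease to under 0.737 times were outside it. In this comparison 0 genes, 0% of those tested, passed the calling rule, which asked for a mean normalized count over 50 and an adjusted p below 0.01. By the unadjusted p, 1012 were under 0.05, and DESeq2 called 4. Higher in LP at an unadjusted p under 0.05 were 5.02% of genes and lower 2.21%. The library of LP mouse 13, the deepest of the 20, stood apart from its group, with a median correlation to the other LP libraries of 0.908, the lowest of all libraries. Without it the log2 fold change of Apod was −0.07 (adjusted p = 1.000, edgeR).

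With high fat, Apod was 2.08 times as high in HF as in NP, a log2 fold change of 1.06 ± 0.20 (SE). In HF + LP it was 0.425 times the level of HF, a log2 fold change of −1.23 ± 0.21 (SE). HF + LP mice had a log2 fold change of −0.18 ± 0.21 from NP and of −0.16 ± 0.21 from LP. The interaction of fat and protein, the difference between the effect of protein on high fat and on the lower fat content, was −1.22 ± 0.29 (SE) on the log2 scale. These 5 values share the HF or HF + LP mice by which Apod was chosen. In HF compared to NP, 37 genes, 0.264%, were called by edgeR, 20 to 32 with 1 mouse left out, and 163 by DESeq2, with 5.17% of genes higher and 7.91% lower before adjustment (p below 0.05). For HF + LP compared to HF, 0 genes, 0%, were called by edgeR, 677 had an unadjusted p under 0.05, with 2.41% higher and 2.43% lower, and DESeq2 called 16.

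Depth and the library names moved with Apod inside the HF group. The labels give each library a number from 1 to 3 whose meaning they do not state. HF mouse 1, the lowest, was the only HF library numbered 1, and the 3 deepest HF libraries, mice 3 to 5, were numbered 3. Total counts over the 20 libraries lay between 12559607 and 23331907. Among libraries numbered 3, the HF mice had 339 to 508, the NP mice 176 and 218, the LP mice 130 and 208, and the HF + LP mice 126 to 148. Among those numbered 2, HF mouse 2 had 362 and the other 4 mice 163 to 186. Among those numbered 1, HF mouse 1 had 177 and the other 4 mice 142 to 197. HF mice were thus above the rest within the libraries numbered 2 and 3 and not within those numbered 1, where HF had 1 mouse. With library number in the model, the log2 fold change was −1.20 for HF + LP compared to HF and 1.03 for HF compared to NP. The part of the library number in the low value of HF mouse 1 was not tested.

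**Figure D2:**
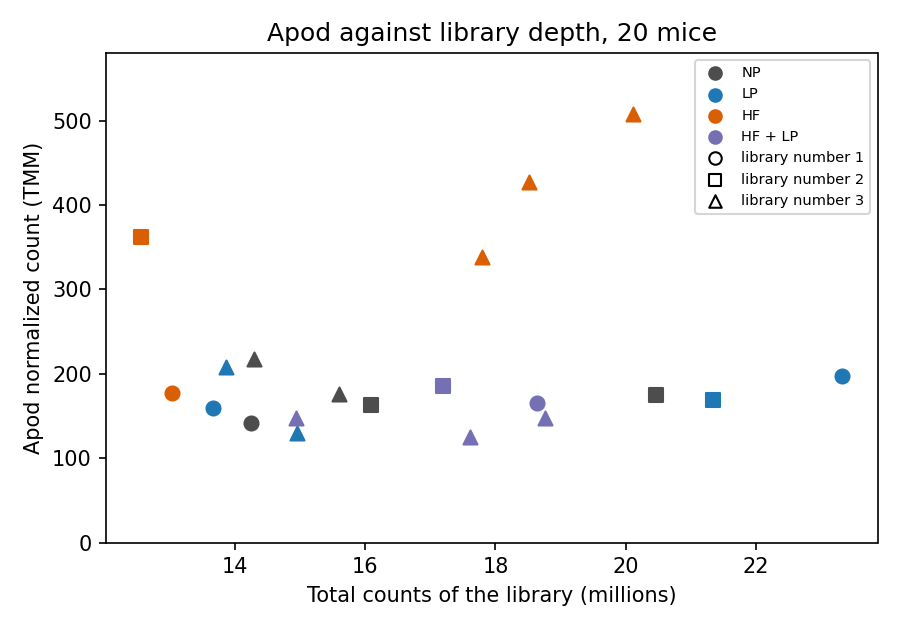
Normalized Apod count (y axis) against total counts of the library (x axis), 1 point per mouse, with color for diet and symbol for the library number. The shallowest library, HF mouse 2, has an Apod count of 362, and the deepest, LP mouse 13, has 197.

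Over the 20 mice, with the diet means taken out, Apod had a Pearson correlation of 0.40 with log2 total counts (permutation p = 0.149 within diets, Benjamini-Hochberg adjusted p = 0.448; Spearman rho = 0.34, permutation p = 0.206, adjusted p = 0.457). Without LP mouse 13 and NP mouse 6, whose depth less the diet mean lay farthest from the median of the 20, r was 0.41. With the share of counts from mitochondrially encoded genes r was 0.19 (permutation p = 0.308, adjusted p = 0.462; rho = 0.25, permutation p = 0.305, adjusted p = 0.457), and without the 2 mice farthest in that share it was 0.03. With body weight r was 0.00290 (permutation p = 0.987, adjusted p = 0.987; rho = 0.00902, permutation p = 0.973, adjusted p = 0.973), and 0.13 without the 2 mice farthest in weight. These 3 relations were tested two-sided as 1 family, each with 100000 permutations, and none passed. Body weight was 48.6 ± 5.93 g in HF + LP and 58.9 ± 1.76 g in HF (SD, n = 5), against 43.0 ± 7.82 g in NP and 32.6 ± 2.69 g in LP, so the HF mice differed little in weight among themselves while their Apod counts spread widely.

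Of the 12 genes that followed Apod most closely from mouse to mouse within diets, 9 were interferon-response genes. Correlations were taken over the 20 mice between log2 CPM values with each diet mean subtracted, for the 10158 other genes with a mean normalized count over 50. They describe these libraries, which share depth and handling, and no p is given. The median r over all genes was 0.02, the range was −0.76 to 0.85, and 194 genes, 1.91%, had an r over 0.5. The 12 highest, all protein-coding, were Rnf213 (0.85), Isg15 (0.85), Irf7 (0.83), Lgals3bp (0.83), Ly6a (0.81), Chek2 (0.79), Oas2 (0.79), Ifit1 (0.79), Ifit3 (0.78), Ms4a6d (0.78), B2m (0.77), and Irf9 (0.76).

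By role, Irf7 and Irf9 are transcription factors of the interferon response, and Irf7 amplifies it. Isg15 is a ubiquitin-like protein, Oas2 makes the messenger that activates RNase L on viral RNA, Ifit1 and Ifit3 bind foreign RNA, and Rnf213 is a large ubiquitin ligase. B2m is the light chain of MHC class I, which shows peptides to T cells. Lgals3bp is a secreted glycoprotein that binds galectins, and Ly6a is a surface protein of stem, endothelial, and activated cells. Chek2, a kinase of the DNA damage checkpoint, and Ms4a6d, a membrane protein of macrophages, have no entry in the interferon list described below, and neither does Ly6a.

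Rnf213 had 147 in NP mouse 4, 176 in mouse 3, 181 in mouse 6, 218 in mouse 8, and 333 in mouse 5, the NP mouse with the most Apod. In HF it had 118 in mouse 1, 216 in mouse 3, 342 in mouse 4, 369 in mouse 2, and 390 in mouse 5. In LP it ran from 150 in mouse 2 to 227 in mouse 13, and in HF + LP from 128 in mouse 5 to 187 in mouse 4. The diets overlapped in Rnf213, and its r without the 5 HF mice was 0.68.

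Isg15 had 127 in NP mouse 3, 158 in mouse 4, 180 in mouse 6, 311 in mouse 8, and 454 in mouse 5. In LP it had 101 in mouse 5, 150 in mouse 2, 186 in mouse 13, 210 in mouse 20, and 233 in mouse 15. LP mouse 5 and LP mouse 15 were also the lowest and the highest in Apod. In HF Isg15 had 153 in mouse 1, 405 in mouse 3, 774 in mouse 2, 850 in mouse 4, and 914 in mouse 5. In HF + LP it had 101 in mouse 5, 194 in mouse 1, 200 in mouse 4, 201 in mouse 3, and 245 in mouse 2. HF mouse 1 was the lowest of its group and NP mouse 5 the highest in both Isg15 and Apod. HF + LP mouse 5 went another way, as it was the lowest of its group in Isg15 but, with 147, not in Apod.

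For Irf7 the HF mice had 208 in mouse 1, 479 in mouse 3, 1219 in mouse 2, 1325 in mouse 5, and 1463 in mouse 4. NP ran from 110 in mouse 4 to 514 in mouse 5, LP from 107 in mouse 5 to 188 in mouse 13, and HF + LP from 101 in mouse 3 to 319 in mouse 4. Irf7 thus overlapped between HF and the other diets through HF mouse 1 and NP mouse 5.

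**Figure D3:**
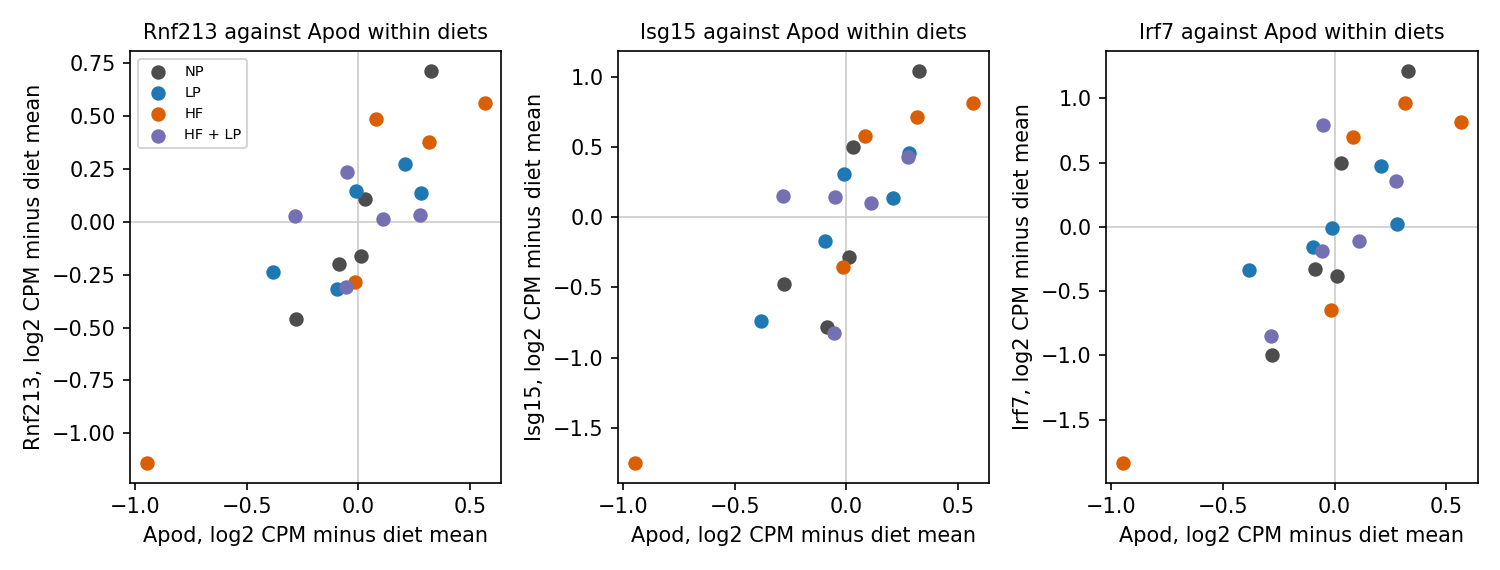
Deviation of Rnf213, Isg15, and Irf7 from the diet mean in log2 CPM (y axes) against that of Apod (x axes), 1 point per mouse, 20 mice, colored by diet. HF mouse 1 is at the lower left in each panel, and the r values are 0.85, 0.85, and 0.83 with it and 0.68, 0.71, and 0.71 without it.

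The same mice marked the ends of the range in many of the 12 genes. These genes were picked by their r with Apod over the same mice, so shared ends follow in part from that choice. HF mouse 1 lay farthest from its diet mean in Apod and so weighed most in that r. The counts are a description. HF mouse 1, the HF mouse with the least Apod, was the lowest HF mouse for 12 of the 12, while mouse 5, with the most, was the highest for 4. NP mouse 5, with the most Apod in NP, was the highest NP mouse for 12 of the 12, and mouse 4, with the least, the lowest for 7. In LP, mouse 5 was lowest for 9 and mouse 15 highest for 4. In HF + LP, mouse 3 was lowest for 5 and mouse 2 highest for 4, so the order was least shared there, where Apod varied least.

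Without the 5 HF mice, the 12 genes had r from 0.63 to 0.78 over 15 mice, though 4 of them then stood among the 50 highest, since other genes rose past them. With log2 total counts regressed out r was 0.73 to 0.89, and with library number also centred it was 0.71 to 0.82. Without HF mice 1 and 5, the 2 farthest in Apod, it was 0.57 to 0.74, and as Spearman rho it was 0.70 to 0.82. In each of these settings all 12 stayed above 0.5, the r that 1.91% of all genes passed in the 20 mice.

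Between diets, none of the 12 genes was called by edgeR. All 12 had a lower mean in HF + LP than in HF, 11 of them with an unadjusted p below 0.05 (2.43% of all genes), and the log2 fold changes were −2.25 for Irf7 to −0.15 for Chek2, with a median of −1.04. In HF compared to NP 11 had a higher mean, 10 with an unadjusted p under 0.05 (5.17% of all genes), and the adjusted p of the 12 ran from 0.0364 for Lgals3bp to 0.966 for Chek2 (edgeR with Benjamini-Hochberg adjustment). In LP compared to NP 11 had a lower mean, and 1, Oas2, had an unadjusted p under 0.05 (2.21% of all genes), with a log2 fold change of −0.84 ± 0.36 (SE). The first and the second of these comparisons share the HF mice. Chek2 followed Apod within diets (0.79) but had a log2 fold change of −0.04 ± 0.18 (SE) in HF compared to NP.

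**Figure D4:**
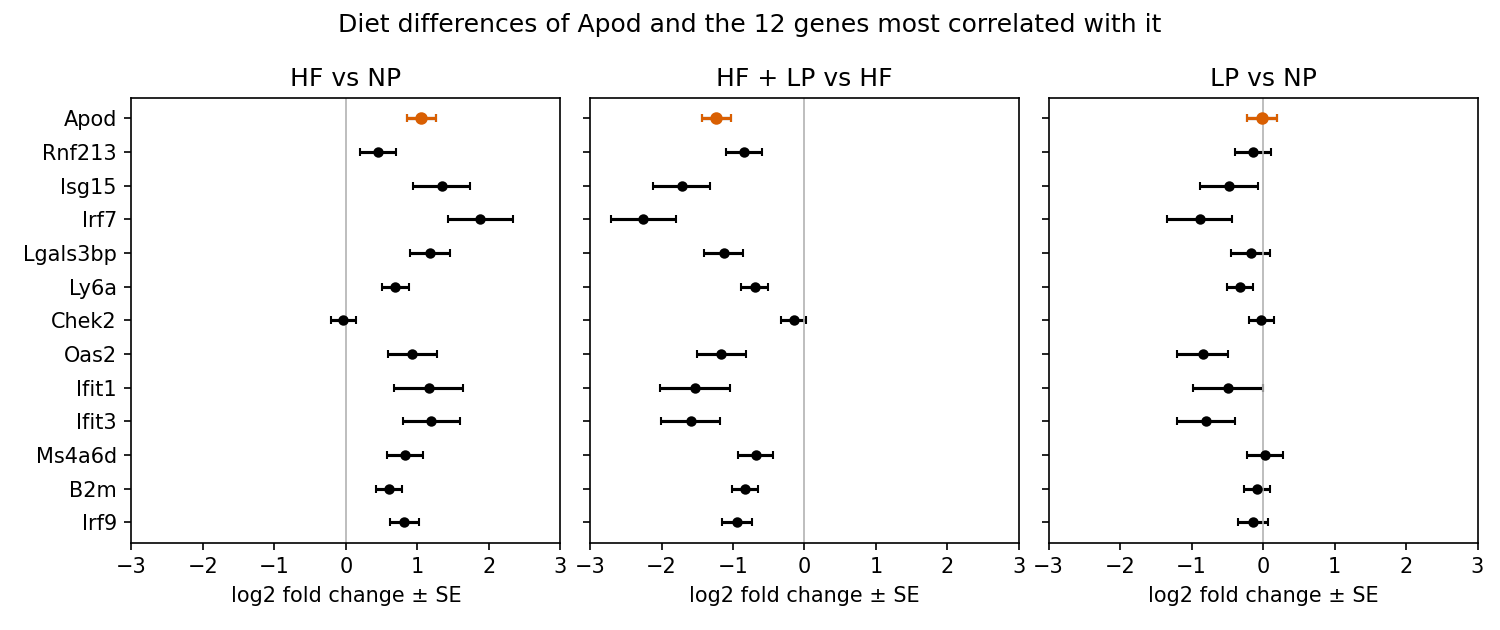
Log2 fold changes with SE (x axes) of Apod, in orange, and the 12 genes most correlated with it within diets, in black (y axis), in 3 comparisons of 5 mice with 5. Irf7 lies farthest from 0 in HF compared to NP (1.88) and in HF + LP compared to HF (−2.25), while Apod is at −0.01 in LP compared to NP.

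An interferon list of 85 genes was written after these correlations had been seen and is given as a description. Of its members 71 could be compared, their median r with Apod was 0.60, and 48 had an r over 0.5, against 1.91% of all genes. It held 9 of the 12 highest genes and 33 of the 50 highest. Of 82 tested members, 60 were higher in HF than in NP and 65 lower in HF + LP than in HF with an unadjusted p below 0.05, with 0 in the opposite direction in either, against 5.17% and 2.43% of all genes. In LP compared to NP, 2 were higher and 2 lower at that p, against 5.02% and 2.21% of all genes. The 1 member of 82 called in HF compared to NP, where 0.264% of all genes were called, was Phf11b. This PHD finger gene of interferon-treated cells is named here after its values were seen. It had 171 ± 66.3 in HF and 56.5 ± 18.7 in NP (SD, n = 5), with a log2 fold change of 1.59 ± 0.29 (SE, adjusted p = 0.00857 from edgeR), and an r with Apod of 0.68. The list was not uniform, as Sp110 (0.01), Xaf1 (0.05), and Ifitm2 (0.11) were near the median of all genes. The summed level of its 83 listed members was 2039 to 4159 CPM in HF and 1492 to 2717 CPM over the other diets, and its log2 sum had an r of 0.81 with Apod within diets.

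**Figure D5:**
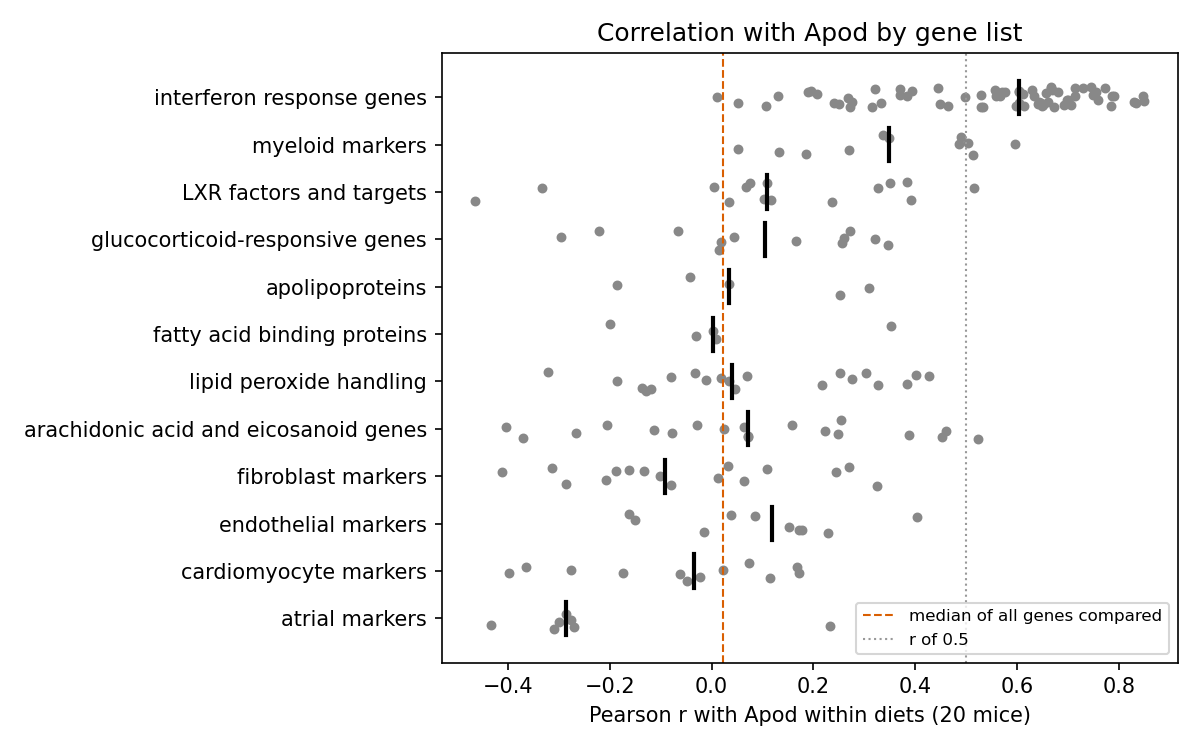
Pearson r with Apod within diets (x axis, 20 mice) of each member of 12 gene lists (y axis), with 1 gray point per gene and a black bar at the list's median. Interferon-response genes center on 0.60, myeloid markers on 0.35, and the other 10 lists between −0.29, for atrial markers, and 0.12, while the dashed median of all genes compared is 0.02. Without the HF mice, not shown, the median was 0.44 for interferon-response genes and 0.46 for myeloid markers.

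The 6 lowest correlations were those of Ptrh2 (−0.76), a mitochondrial peptidyl-tRNA hydrolase, Ccdc137 (−0.76), Tmem63a (−0.70), a mechanosensitive ion channel, the long noncoding RNA Snhg18 (−0.68), Agap1 (−0.65), which acts in endosome traffic, and Pogk (−0.65). Ptrh2 had 211 in HF mouse 1 and 165 to 176 in the other HF mice, so the HF mouse with the least Apod had the most Ptrh2. Without the HF mice the r of Tmem63a was −0.15 and that of Snhg18 −0.35, and without HF mouse 1 alone they were −0.33 and −0.39, so both rested largely on that mouse, while Pogk had −0.75. In none of the 3 comparisons did any of the 6 have an unadjusted p under 0.05.

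The other apolipoprotein genes were read beside Apod. Of 24 genes of the apolipoprotein list, 11 were in the count table, 7 passed the filter on low counts, and 5 had a mean over 50. Their r with Apod ran from −0.19 for Clu, a secreted chaperone of lipoproteins, to 0.31 for Apol10b. Apoe, the lipid carrier of macrophages, had 5969 ± 538 in the HF + LP mice and 7492 ± 1558 in the HF mice (SD, n = 5), a log2 fold change of −0.33 and an r with Apod of 0.03. Lower in HF + LP than in HF with an unadjusted p below 0.05 were 3 of the 7, Apol10b, Apobr, and Apol9b, against 2.43% of all genes. None was called. Apobr encodes a receptor for apolipoprotein B and is not itself an apolipoprotein. Apol9b, a member of the interferon-inducible Apol9 genes whose near-identical copy may share its reads, had 10.2 to 40.9 in the HF mice and 1.04 to 7.84 in the HF + LP mice. The remaining members Apoo and Apool, which shape the mitochondrial inner membrane, had an r of 0.25 and −0.04.

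Lipocalins, the family of its fold, were few in these libraries. Of 19 lipocalin genes 5 were listed and 4 passed the filter. Ptgds, the lipocalin that makes prostaglandin D2, had 7232 ± 1956 in the HF + LP mice and 10560.5 ± 1053 in the HF mice (SD, n = 5), a log2 fold change of −0.55 with an adjusted p of 0.999 (edgeR), and an r of −0.11. Rbp4, the retinol carrier, had 9.92 ± 12.8 in HF + LP and 12.8 ± 14.2 in HF. Lcn2, a neutrophil lipocalin that binds iron carriers of bacteria, had 18.6 ± 2.31 in HF + LP and 17.4 ± 6.73 in HF, and C8g, a chain of complement, had 13.9 ± 5.05 and 14.9 ± 2.79. None of the 4 was called in any of the 3 comparisons.

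Of the LXR receptors and their targets, 15 of 17 could be compared, with a median r of 0.11. The log2 sum of the 17, which the most abundant members weigh most, had an r of 0.57 with Apod within diets. The highest was Pltp, the phospholipid transfer protein, with 0.52, and the lowest Lpcat3, which remodels phospholipids, with −0.46. The receptors Nr1h2 and Nr1h3 had 0.35 and −0.33, and their partners Rxra and Rxrb 0.38 and 0.10. Among the exporters and lipid enzymes, Abca1 had 0.12, Lpl 0.39, Mylip 0.08, Smpdl3a 0.24, Srebf1 0.33, Fasn 0.11, Scd1 0.004, and Scd2 0.07. None was called. Of 16 tested, Lpcat3 alone had an unadjusted p below 0.05 in HF + LP compared to HF. Its log2 fold change was 0.22, and 2.41% of all genes were higher at that p. In LP compared to NP, 4 of the 16 were higher before adjustment (p below 0.05), against 5.02% of all genes, and 0 were lower. Abcg1 had 29.5 ± 10.6 in the HF + LP mice and 44.1 ± 12.3 in the HF mice (SD, n = 5), below the mean at which correlations were taken.

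Of 4 genes of proteins named as partners of apolipoprotein D, 2 could be compared by r. Bsg, the cell surface protein reported to take it up, had 6472 ± 699 in the HF + LP mice and 5609 ± 438 in the HF mice (SD, n = 5) and an r of −0.13. Scarb1, the HDL receptor, had 290 ± 79.8 and 293 ± 20.9 and an r of 0.31. Lcat and Lepr had means of 9.46 and 12.3 over the 20 mice. In HF compared to NP 2 of the 4 were lower at an unadjusted p under 0.05, against 7.91% of all genes, and none was called.

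Lists of genes tied to its ligands and regulators had medians near that of all genes, 0.07 for 19 arachidonic acid and eicosanoid genes, with Alox5ap highest at 0.52, 0.04 for 20 genes that handle lipid peroxides, 0.004 for 5 fatty acid binding proteins, with Fabp4 at 0.35, and 0.11 for 12 glucocorticoid-responsive genes. Without the HF mice the median of the last list was 0.40, against 0.44 for the interferon list.

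Markers of other cells of the ventricle were read beside Apod, since in whole tissue fewer cells of a type and less RNA per cell cannot be told apart. Myeloid markers had a median r of 0.35. An r over 0.5 was held by 3 of 11, against 1.91% of all genes, namely C1qc (0.60), Cd68 (0.51), and Tyrobp (0.50). Without the HF mice the median r of the myeloid markers was 0.46, and that of the interferon list 0.44. Of 12 tested, 8 were higher in HF than in NP and 3 lower in HF + LP than in HF with an unadjusted p below 0.05, against 5.17% and 2.43% of all genes, and none was called. Their summed level was 465 to 609 CPM in HF, 354 to 484 CPM in HF + LP, 353 to 463 CPM in NP, and 260 to 620 CPM in LP. None of the 12 was at 0 in any library. The part of myeloid cells in the Apod values was not tested.

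Fibroblast markers had a median r of −0.09 with Apod, with 0 of 16 over 0.5, against 1.91% of all genes. Their sum was 2074 to 2754 CPM in HF and 1872 to 2348 CPM in HF + LP. Col3a1, the type III collagen chain, had an r of 0.24, with 1295 ± 252 in the HF + LP mice and 1899 ± 448 in the HF mice (SD, n = 5). Of 16 fibroblast markers, 4 were higher in HF than in NP and 4 lower in HF + LP than in HF before adjustment (p below 0.05), and of 10 adventitial fibroblast markers 4 and 3, against 5.17% and 2.43% of all genes. None was called, and the part of these cells in the Apod values was not tested. Of 12 pericyte and smooth muscle markers, 5 were lower in HF than in NP, against 7.91% of all genes, and 2 higher in HF + LP than in HF, against 2.41%. Adventitial fibroblast markers had a median r of −0.20, Schwann cell markers −0.15, pericyte and smooth muscle markers 0.11, with Notch3 at 0.55, endothelial markers 0.12, lymphatic endothelial markers −0.05, endocardial and valve markers −0.20, mesothelial markers −0.07, and erythroid markers 0.02. The 1 lymphocyte marker compared, Trbc2, had 0.08, and the lymphocyte sum was 591 CPM in 1 LP library and at most 10.7 CPM in every mouse of the other diets.

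Cardiomyocyte markers, which fit the labelled tissue, were present in every library, with a sum of 47896 to 71893 CPM, and had a median r of −0.04 with Apod. Of the 12, 4 were lower in HF than in NP before adjustment (p below 0.05), against 7.91% of all genes, and none was called. Atrial markers, which a ventricular sample should lack, varied from 268 to 16576 CPM, and adipocyte markers from 227 to 1040 CPM. Their median log2 fold changes in HF + LP compared to HF were −1.30 and −1.88, with 0 of 7 and 0 of 10 members at p below 0.05 before adjustment. In HF compared to NP they were 1.21 and −0.20, again with 0 of 7 and 0 of 10 members. The summed atrial level had a median of 353 CPM in HF + LP, 463 CPM in HF, and 1596 CPM in NP. Its highest library there had 5904, 13550, and 4197 CPM. The adipocyte sum had medians of 334, 278, and 356 CPM in these diets, with overlapping ranges. Within diets the median r with Apod was −0.29 for atrial and −0.05 for adipocyte markers, and the values depended on the setting. Atrial markers had 0.24 without the HF mice, and adipocyte markers −0.43 with depth regressed out. In LP compared to NP, the median log2 fold changes were 1.39 for atrial markers, 2.10 for adipocyte markers, and 1.43 for lymphocyte markers. Higher at an unadjusted p below 0.05 were 1 of 7, 4 of 10, and 5 of 6, against 5.02% of all genes. The summed atrial level had a median of 1960 CPM in LP and 1596 CPM in NP, and the highest LP library had 16576 CPM. For adipocyte markers the medians were 344 and 356 CPM, and the highest LP library had 1040 CPM. For lymphocyte markers they were 6.76 and 4.07 CPM, with 591 CPM in the highest LP library. The part of these 3 lists in the diet differences of Apod was not tested.

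The chromosomal neighbors of Apod were compared next. Of the protein-coding genes that start within 250 kb, 4 were listed, and 3 had a mean over 50, with r of 0.31 for Ppp1r2, an inhibitor of a protein phosphatase, 0.22 for Acap2, and 0.12 for Bdh1, a mitochondrial enzyme of ketone use. Ppp1r2 had 678 ± 204 in HF + LP and 817 ± 383 in HF, and Bdh1 had 1994 ± 683 and 2705 ± 582 (SD, n = 5). Their log2 fold changes in HF + LP compared to HF were −0.27 ± 0.29 and −0.44 ± 0.28 (SE), that of Acap2 was −0.20 ± 0.29, and that of Xxylt1 was −0.54 ± 0.29, all with an adjusted p of 0.999 (edgeR), against −1.23 for Apod.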

How the data were processed

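RNA from the left ventricle of 20 mice was made into QuantSeq 3′ mRNA libraries, sequenced as 75 bp reads on a NextSeq, and aligned with BlueBee software. The authors deposited raw counts per Ensembl gene and mouse, unnormalized. The submitters' processing notes name GRCm38 and DESeq2 1.22.2, and the annotation and counting program are not given in the sources used here. The mice of a group are separate animals. Each listed gene has at least 60 counts over the libraries, which total 12559607 to 23331907 each, and the precision of counting is given as a coefficient of variation, which covers counting error only.

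Symbols were matched in GENCODE M21 for 15917 of 15956 genes. In R 4.3.3, edgeR 4.0.16 (filterByExpr by diet, 13991 genes kept, TMM, quasi-likelihood fit of all 4 groups) gave log2 fold changes, with standard errors derived from the F statistic. Normalized counts are counts scaled to the mean effective library size. Within-diet correlations used log2 CPM (prior count 2) less each diet mean. No 2 libraries held identical values. Same-numbered mice of different diets are different animals. DESeq2 1.42.0 was an alternative, with other scaling, filters, priors, covariates, and left-out mice. Genes said to be called, or not called, with no program named refer to edgeR. The tests were tried on simulated counts.

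The gene, lists, and tests were chosen with earlier results of these data known, and the interferon list after the correlations had been seen. Named are the 12 highest and 6 lowest within-diet correlations, the tested apolipoproteins, lipocalins, LXR genes, and reported partners, up to 4 genes of any other list by p or r, and protein-coding genes starting within 250 kb of Apod. Sequences are from RefSeq on GRCm38.p6.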

Additional observations from a re-analysis of the deposited data

Results flagged for a closer look

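Within each diet group of 5 mice, Apod and the 18 genes with the highest and lowest correlations were searched for a mouse far from the other 4, by the gap to the nearest mouse as a share of the group's range. Of 76 groups 7 were past the limit. For genes not picked from these mice, about 1 in 20 would be by chance, or 3.8 of 76. The 18 genes were picked by their r with Apod, in which HF mouse 1 weighed most. That share is therefore no expectation for them or for the flags of HF mouse 1. Apod was not among the 7 in any diet. HF mouse 1, the HF mouse with the least Apod, accounts for 4 of the 7. It was the lowest HF mouse in Ms4a6d, at 1.41 log2 CPM against 2.48 to 2.59 in the others (a gap of 0.907 of the range), and in Chek2, at 1.98 against 2.51 to 2.70 (0.743). It was the highest in Snhg18, at 4.50 against 3.58 to 3.78 (0.786), and in Ptrh2, at 3.65 against 3.29 to 3.39 (0.741). The others are Isg15 in HF + LP mouse 5, at 2.60 against 3.53 to 3.86 (0.735), Tmem63a in NP mouse 6, at 5.01 against 4.84 to 4.87 (0.783), and Agap1 in LP mouse 5, at 5.34 against 4.83 to 4.95 (0.774). None of the 18 genes passed the test of a different effect of protein on the 2 fat contents. Their smallest adjusted p was 0.640 (edgeR interaction, Benjamini-Hochberg). Before adjustment, 5 of the 18 had a p below 0.05 in this test. The share of all genes below that p is not given for the interaction, so no excess can be read from these 5.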

How the results depend on the processing

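Each choice was changed alone. Apod kept its sign in HF + LP compared to HF (log2 fold change −1.26 to −1.18 under 8 alternatives, −1.41 without HF mouse 1 to −1.08 without HF mouse 5) and in HF compared to NP (at least 1.03 under 8 alternatives, and 0.90 to 1.23 with a mouse left out). In LP compared to NP, near 0, it became 0.047 with library number as a covariate (adjusted p = 0.997, edgeR), and with a mouse left out it ran from −0.086 to 0.075, and 3 of these 10 values turned positive. The adjusted p over all alternatives was 0.924 to 1.000. Animal numbers pair no mice (same-numbered mice had deviations with r of −0.553 to 0.476 over 16 pairs of groups, 7 over 0.1). With the animal number as a block, Apod in LP compared to NP moved to −0.45 (adjusted p = 0.993, edgeR), the largest move of any setting for that comparison, HF + LP compared to LP became 0.34, the interaction −0.73, and 2 in place of 37 genes were called for HF against NP. That count was 157 at an adjusted p under 0.05, 163 with DESeq2, 61 with only the compared groups, and 20 to 32 with a mouse left out. It fell below the main count by over 1.5 times without NP mice 5, 6, or 8 (23, 20, and 22) and HF mice 4 or 5 (20 and 24). In HF + LP compared to HF DESeq2 called 16 and edgeR 0 to 1 with a mouse left out, the 1 without HF mouse 1. In LP compared to NP DESeq2 called 4.

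The median r of the 12 genes was 0.69 to 0.83 over 9 alternatives and 0.68 to 0.83 with a mouse left out. For these correlations, the settings without the HF mice, with depth regressed out, and scaled without mitochondrially encoded genes, and the setting without LP mouse 13, taken out for its low correlation with its group (median r of the 12 genes 0.80), came after the data were seen, and without the HF mice 4 of the 12 were among the 50 highest. The r with body weight was −0.00491 with RLE size factors and −0.098 to 0.14 with a mouse left out. The median r of the fibroblast markers became 0.10 without the 2 mice farthest in Apod and 0.12 without the HF mice, and was −0.15 to 0.10 with a mouse left out. That of the LXR genes became −0.010 with depth regressed out. The cause of these changes was not tested. With 5 mice a group and 119 to 662 Apod counts a library, smaller differences could be missed.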
